A study of Mus musculus with 2 samples.

Results

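The genes described here are 10 antimicrobial genes of the small intestine that were measured in mouse fat and liver: the alpha-defensins Defa3, Defa23, Defa27, Defa29, Defa40 and Defa42, the lectins Reg3b and Reg3g, the lysozyme Lyz1 and the ribonuclease Ang4. They were chosen by name, from the adipose array's measured values, in which most of them stood among the highest ratios, so their adipose ratios are a description. Probes were assigned through the transcript accession on the array to the current gene symbol, which gave 14 probes for the 10 genes, of 20886 genes with a probe. The tissues came from male C57BL/6J WT mice that had eaten a high-fat diet (HFD) or a normal diet (ND) for 4 weeks. RNA of 10 livers and 10 adipose tissues was combined by diet, and the pools of a tissue were put on 1 two-colour Agilent array, the HFD pool in red (Cy5) and the ND pool in green (Cy3). The sources used here do not name the fat depot. Pooling and the lack of a repeated array leave no measure of the variation among animals, so no test was made, and dye and diet cannot be told apart. Ratios below are log2 of the HFD pool over the ND pool, a gene was called at a ratio of at least 2-fold, and the error beside a ratio is that of the scanner software, on the log2 scale.

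Paneth cells sit at the base of the crypts of the small intestine and release granules onto the crypt surface. Alpha-defensins, called cryptdins in the mouse, are short cationic peptides of those granules that damage bacterial membranes. In the mouse they are made as inactive precursors that the protease matrilysin, encoded by Mmp7, cuts. Reg3b and Reg3g encode secreted C-type lectins that bind bacterial cell walls and keep bacteria away from the gut surface. They are made by enterocytes as well as Paneth cells and are induced by interleukin-22 and by bacterial signals. Lyz1 encodes the Paneth cell form of lysozyme, which cleaves the bacterial cell wall, and Lyz2 the form of macrophages. Ang4 encodes an angiogenin of Paneth cells that kills bacteria. Adipocytes and hepatocytes are not known as sources of alpha-defensins.

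The alpha-defensins lie in a cluster of near copies on chromosome 8, where the RefSeq table holds all 40 of its named genes and pseudogenes of the family. Reg3b and Reg3g are neighbours on chromosome 6, while Lyz1 is on chromosome 10 and Ang4 on chromosome 14. The 250 bases before the start of Defa23 and Defa42, and of the lectin pair, are shown because these genes move together on the adipose array. The windows lie upstream of the transcripts, so their likeness says nothing of what a probe binds. The sequences come from RefSeq (build GRCm38.p6), run 5′ to 3′ on the strand of the gene, and have in capitals each match, on either strand, of 5 short motifs: the TATA box core TATAAA, the TCF/LEF-type cores CTTTGAA (first form) and CTTTGAT (other form), and the CDX-type cores TTTATG (first form) and TTTATT (other form).
Defa23, chr8:21054790-21055039, plus strand: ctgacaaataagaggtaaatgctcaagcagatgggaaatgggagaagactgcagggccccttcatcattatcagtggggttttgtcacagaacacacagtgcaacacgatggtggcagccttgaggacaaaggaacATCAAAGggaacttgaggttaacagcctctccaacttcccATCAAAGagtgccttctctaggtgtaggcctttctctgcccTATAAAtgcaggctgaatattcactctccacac
Defa42, chr8:21456518-21456767, minus strand: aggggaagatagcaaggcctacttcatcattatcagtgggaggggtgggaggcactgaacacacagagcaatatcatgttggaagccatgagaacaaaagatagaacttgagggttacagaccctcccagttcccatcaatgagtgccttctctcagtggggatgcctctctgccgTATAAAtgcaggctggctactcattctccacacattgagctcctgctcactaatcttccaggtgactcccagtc
Reg3b, chr6:78370635-78370884, plus strand: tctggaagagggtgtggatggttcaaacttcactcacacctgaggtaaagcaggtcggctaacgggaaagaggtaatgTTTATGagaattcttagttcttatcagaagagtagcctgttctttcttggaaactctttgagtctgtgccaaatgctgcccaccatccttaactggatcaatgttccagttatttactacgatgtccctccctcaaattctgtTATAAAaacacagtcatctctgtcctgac
Reg3g, chr6:78468875-78469124, minus strand: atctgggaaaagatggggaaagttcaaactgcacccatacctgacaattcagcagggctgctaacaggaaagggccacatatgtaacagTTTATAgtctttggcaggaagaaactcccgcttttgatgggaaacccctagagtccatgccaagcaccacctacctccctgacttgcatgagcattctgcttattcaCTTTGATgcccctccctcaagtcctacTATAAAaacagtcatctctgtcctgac

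The table held this window for 6 of the 10 genes (Defa23, Defa42, Reg3b, Reg3g, Lyz1 and Ang4) and for 16 alpha-defensins in all. Over the 120 pairs of alpha-defensins, the identity of the windows in a global alignment had a median of 69.2% and ran between 44.3% and 100%, and it was 54.5% for Defa23 and Defa42. Reg3b and Reg3g shared 68.4%, and Defa23 and Reg3b, which are not relatives, 45.6%. TATAAA, the core of a TATA box, was present in 15 of the 16 alpha-defensin windows and in both Reg3 windows, against 12.4% of all 32851 promoters. In Defa23 it began 33 bases before the start and in Defa42 74 bases before it. CTTTGAT, a core that TCF/LEF factors of the Wnt pathway bind, was present in 13 of 16 alpha-defensin windows and in that of Reg3g, against 3.21% of all promoters. Defa23 held 2 copies, both on the opposite strand and so read as ATCAAAG, and Defa42 none. The related letters CTTTGAA were in none of the 16 (4.46% of all), nor was TTTATG (10.8% of all) or, of the same CDX type, TTTATT (18.1% of all). Reg3b held TTTATG, and TTTATT was found in Lyz1. The TCF/LEF-type motifs differ in their last base only, and TATAAA read on the opposite strand differs from either CDX-type motif in its last base only. A match says only that the letters are there.

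All 10 genes were measured on the adipose array, well above background in both channels at each of the 14 probes, and all 10 were at least 2-fold higher in the HFD fat pool. Of the 14315 genes measured in fat, 4.23% passed 2-fold upward and 5.13% downward. The median of the 10 was 5.53, against -0.01 over all genes measured, and 8 of them were at least 16-fold higher, a size that 0.328% of all genes reached. Nothing is read from these shares, since the genes were chosen from these ratios. In a pool of tissue, more cells of a type and more RNA per cell cannot be told apart.

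Spot signals, here and below, are raw, taken before background and dye correction. Red was the brighter channel on the adipose array, with a median spot signal of 274 in HFD fat against 97 in ND fat. A raw pair of signals therefore overstates these ratios. For the Defa3 probe given first, the raw signals were 321.8-fold apart and the corrected ratio was 55.3-fold. Defa3 has 3 probes, whose median pixel intensities were 213838, 236327 and 280678 in HFD fat and 664.5, 1041 and 695 in ND fat, over local backgrounds of at most 63 and 34. Defa23 has 2 probes, at 130714 and 426803 in HFD fat and 684 and 766.5 in ND fat. The signal of each of these probes in ND fat was low beside HFD fat yet far over its background. Defa27, on 1 probe, gave 103470 in HFD fat and 364.5 in ND fat. Defa29, on 1 probe, gave 186831 in HFD fat and 754 in ND fat. Defa40, also on 1 probe, gave 186813 in HFD fat and 577 in ND fat. The 2 probes of Defa42 gave 172734 and 212425 in HFD fat and 988 and 669 in ND fat. Over the 10 defensin probes, raw HFD signals ran from 103470 to 426803 and raw ND signals from 364.5 to 1041. Nothing is read from the gap between these ranges, since the genes were chosen from their ratios. Brightness differs between probes for reasons of their own sequence, so signals are compared within a probe only.

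After background correction and loess, the ratio was 5.80 for Defa23 (55.6-fold, scanner error 0.60) and 5.80 for Defa40 (55.6-fold, 0.60). Defa3 was at 5.72 (52.9-fold, 0.59) and Defa27 at 5.65 (50.1-fold, 0.60). Defa29 was at 5.42 (42.7-fold, 0.56) and Defa42 at 5.34 (40.4-fold, 0.55). The 6 defensins thus lay within one scanner error of each other. Probes of the same gene differed by more than these genes did. The 2 probes of Defa23 stood at 5.06 and 6.54, 2.80-fold apart, those of Defa3 spanned 5.27 to 6.12 and those of Defa42 4.90 to 5.77. Transcripts of the family are so alike that a probe may bind several, and the probe sequences were not used here. The order of the defensins among themselves is therefore not established, and their ratios may not be separate observations.

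**Figure D1:**
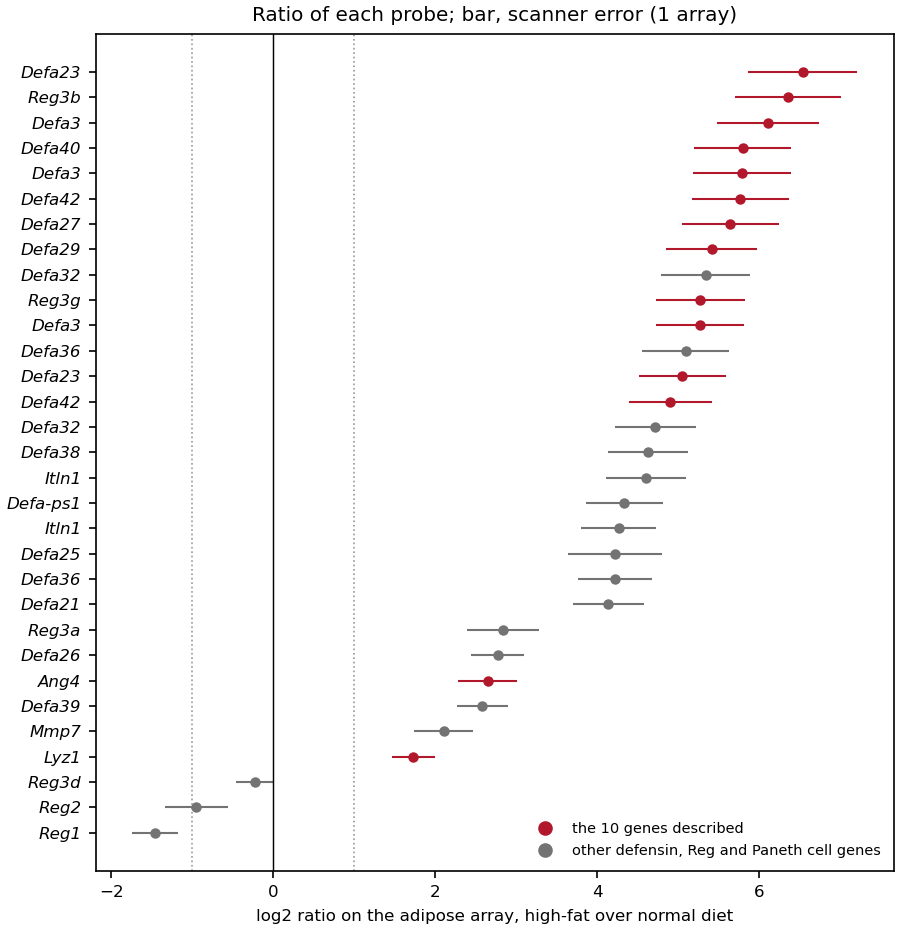
Log2 ratio on the adipose array, HFD over ND pool, for each probe of the 10 genes (red) and of other alpha-defensins, other Reg genes, Itln1 and Mmp7 (grey) that was well above background in both channels. Itln1 and Mmp7 are the 2 of 8 measured other Paneth cell genes that were at least 2-fold higher. The rest, 2 of them at least 2-fold lower, are not drawn. Points are single probes on 1 array, bars are the scanner software's error, and dotted lines mark 2-fold; the red probes of defensins and Reg3 lectins lie between 4.90 and 6.54, those of Ang4 (2.65) and Lyz1 (1.73) lower.

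Reg3b had a signal of 340302 in HFD fat and 701 in ND fat. Its ratio was 6.36 (82.2-fold, scanner error 0.65), the 2nd highest of the 14315 genes measured in fat. Reg3g had 265770 in HFD fat and 1160 in ND fat, a ratio of 5.28 (38.7-fold, 0.55). Each lectin rests on 1 probe. Their difference of about 1 on the log2 scale was larger than either error, but the 2 probes of Defa23 alone differed by 1.49. With no replicate to test it, the order of the 2 lectins is not established.

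Lyz1 and Ang4 were higher in HFD fat by less. Lyz1 had 128436 in HFD fat and 6376.5 in ND fat, a ratio of 1.73 (3.32-fold, scanner error 0.26). Its signal in ND fat was thus far over the local background of 26.5. The macrophage paralogue Lyz2 was at 0.13 (10.07 in HFD fat and 9.94 in ND fat as log2 levels), so the ratio of Lyz1 was not shared by the paralogue's probe. Whether the Lyz1 probe also binds Lyz2 transcripts, in fat or in liver, was not tested. Ang4 had 4897.5 in HFD fat and 153 in ND fat, a ratio of 2.65 (6.27-fold, 0.37). With the scanner software's own log ratio Ang4 was at 3.25. Lyz1 and Ang4 ranked 265 and 134 among the 14315 genes, while the other 8 were all among the 12 highest.

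Probes of the 10 genes also gave signal well above background in the ND fat pool. Whether this signal came from these transcripts alone was not tested. For the 6 defensins and 2 lectins, log2 channel levels in ND fat lay between 9.86 and 11.74, against 6.10 to 6.98 in ND liver, where the lowest level among probes well above background was 6.19. Most of these liver probes were not well above background, so no size is given for the difference between tissues. Setting one array's levels against the other's holds only if they share one distribution of brightness, as the scaling made them. For each of the 8 genes the order of levels was HFD fat, ND fat and then liver. HFD and ND liver were next to each other in that order, mostly at background and so without an order of their own. Lyz1 had levels of 15.94 in HFD fat, 14.20 in ND fat, 10.22 in HFD liver and 10.44 in ND liver. Ang4 alone among the 10 was brighter on the liver array, with 10.96 in HFD fat and 8.31 in ND fat, and 12.64 in HFD liver and 11.86 in ND liver.

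**Figure D2:**
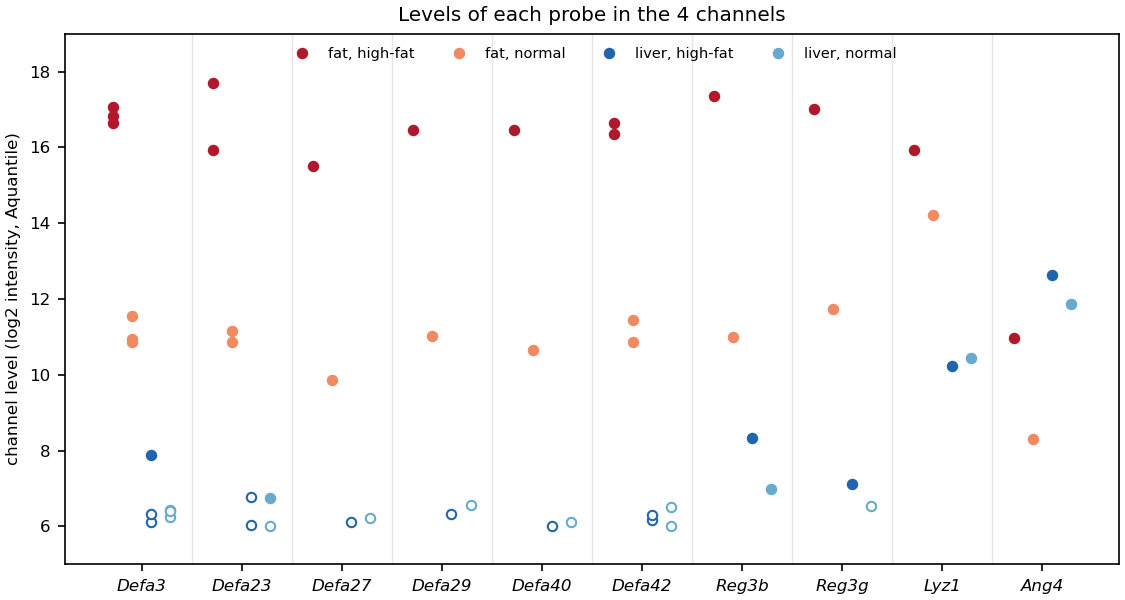
Log2 level of every probe of the 10 genes in HFD fat, ND fat, HFD liver and ND liver, after both arrays were scaled to one distribution of mean brightness. Filled points are well above background and open points are not; the defensins lie at 15.51 to 17.70 in HFD fat and 9.86 to 11.56 in ND fat, and at or near background in liver, while Ang4 is higher in liver.

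The liver array did not enter the choice of genes. Of its 13642 measured genes 0.491% passed 2-fold upward and 0.579% downward, and the median of all genes was 0.01. Only Reg3b, Lyz1 and Ang4 were measured in both channels, with a median of 0.78, and 1 of the 3 was called. Reg3b had a signal of 305 in HFD liver over a local background of 49 and 73 in ND liver over 27. Its ratio was 1.35 (2.54-fold, scanner error 0.35), rank 24 of 13642. Both signals are dim, and the size depended on the background correction: the ratio was 2.87 with the software's log ratio, 1.89 with an offset of 10, and 0.11, no longer called, with all local backgrounds as deposited. Reg3g had 113 in HFD liver, well above background, and 59.5 in ND liver, which was not. With the main background correction, Reg3g was at least 1.49-fold higher in HFD liver, by its HFD level against its ND level. This bound was not computed with the other background settings, on which the Reg3b ratio depended.

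Alpha-defensins were near background in liver in both pools. Of the 10 probes of the 6 genes, 8 were above background in neither channel. One probe of Defa3 had a signal of 211 in HFD liver and 54 in ND liver, where it was not well above background. With the main background correction it was at least 2.73-fold higher in HFD liver. The other 2 probes of Defa3 gave 57.5 and 62 in HFD liver and 59 and 59 in ND liver, so the probes of this gene disagreed. A probe of Defa23 was above background in ND liver only, at 71 over 27, with 79 over 37 in HFD liver. Apart from that Defa3 probe, the signals of the defensin probes lay between 47.5 and 79 in HFD liver and 47 and 71 in ND liver. No probe of the family was above background in both pools, so no ratio is given there, and a low level would not be seen over this background. Of the 12 probes of other alpha-defensins, none was above background in either liver pool.

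Lyz1 in liver had 1465 in HFD liver and 961.5 in ND liver, a ratio of -0.22 (scanner error 0.21) that was not called and turned to 0.19 with median centring. Ang4 had 9066 in HFD liver and 2799 in ND liver, a ratio of 0.78 (1.72-fold, 0.22), below 2-fold. Ang, which encodes angiogenin and is abundant in liver, was at 0.76 there and Ang2 at 0.75, so the 3 ratios lay within 0.035. In fat the same 3 probes spread widely, with Ang4 at 2.65, Ang at 0.19 and Ang2 at 0.28. Rnase4, which shares its locus with Ang, was at 0.84 in liver and 0.14 in fat. Angiogenins are alike in sequence, and whether the Ang4 probe binds Ang transcripts in liver was not tested.

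**Figure D3:**
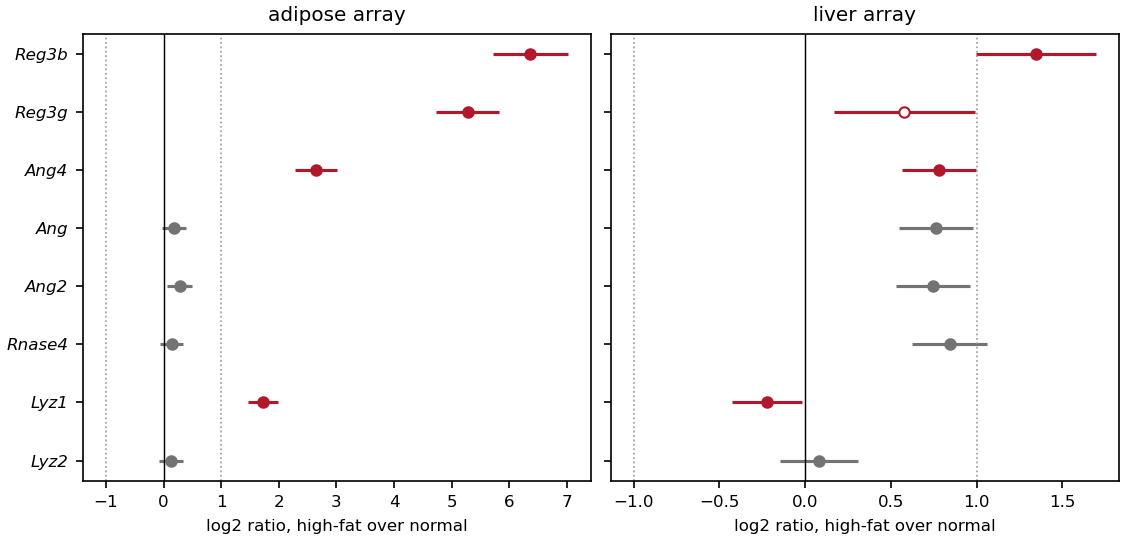
Log2 ratio of HFD over ND on the adipose array (left) and the liver array (right, another axis range) for Reg3b, Reg3g, Ang4 and Lyz1 (red) and the relatives Ang, Ang2, Rnase4 and Lyz2 (grey). Points are single probes, bars the scanner error, the open point is above background in HFD liver only; Ang4 stands apart from its relatives in fat (2.65) and lies beside them in liver (0.78).

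Other alpha-defensins moved the same way in fat. Of 34 further genes and pseudogenes of the family in the table, 10 had a probe through their accession, 8 of these were measured, and 8 of 8 were at least 2-fold higher in HFD fat, with a median of 4.28. Defa32 was at 5.03, Defa36 at 4.66, Defa38 at 4.63, the pseudogene Defa-ps1 at 4.34, Defa25 at 4.22 and Defa21 at 4.14. Defa26 (2.77) and Defa39 (2.58) lay lower. Defa39 had 34037.5 in HFD fat and 1014 in ND fat, and Defa26 had 32948 in HFD fat and 865 in ND fat. The pseudogenes Defa-ps12 and Defa-ps13 were at background in all 4 channels, with 59 and 53 in HFD fat and 54.5 and 50 in ND fat. So not every probe designed to the family gave signal in HFD fat.

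Outside the defensins, the Reg family was split. Reg3a, another lectin of the family, was at 2.84, with 3251 in HFD fat and 91.5 in ND fat. Reg1, made by acinar cells of the pancreas, was lower in HFD fat, at -1.46. Reg2, another pancreatic member, was at -0.95 and Reg3d at -0.22, neither past 2-fold. Reg4 was above background in HFD fat alone, at least 1.42-fold higher. Exocrine pancreas markers were lower in HFD fat on the same array, 13 of 17 measured by at least 2-fold with a median of -1.87. The log2 of their summed intensity was 12.49 in HFD fat and 14.39 in ND fat, and their part in the Reg1 ratio was not tested.

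Of 10 other Paneth cell genes with a probe, 8 were measured, 2 of them at least 2-fold higher and 2 lower, with a median of 0.04. Itln1, an intestinal lectin that binds microbial sugars, was at 4.44, with its 2 probes at 4.27 and 4.61. Mmp7, the protease that activates mouse alpha-defensins, was at 2.11, with 1854 in HFD fat and 94.5 in ND fat. Mptx1, a pentraxin of the gut mucosa, was above background in HFD fat alone, at 740 against 52 in ND fat, and at least 3.90-fold higher. Clps, which encodes colipase, also a product of the pancreas, was at -2.53, and Cd24a, present on many cell types, at -1.01. Fgfrl1 (0.08), Nupr1 (-0.01), Habp2 (-0.02) and Kcnn4 (0.55) stayed below 2-fold, and Wnt3 was above background in neither fat pool.

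Most measured genes that control Paneth cells and the lectins lay below 2-fold in fat. Among 17 measured genes of Paneth cell control, 1 was at least 2-fold higher and none lower, with a median of 0.10. The one was Spdef (2.62), a transcription factor of goblet and Paneth cell maturation. The next in size were Ctnnb1 (0.95), which encodes beta-catenin, Ephb3 (0.69), a receptor that positions Paneth cells, and Fzd5 (0.38), a Wnt receptor. Atoh1, a factor of secretory fate, was above background in HFD fat only, at a bound of 1.80 on the log2 scale. Among 10 measured genes of interleukin-22 and STAT3 signalling, none passed 2-fold, with a median of -0.18. Il22ra1, a subunit of the interleukin-22 receptor, was above background in HFD fat alone at 2 probes. One was at least 3.27-fold higher in HFD fat and the other at least 1.12-fold. Il22ra2, a decoy receptor, was at -0.81, Il18 at 0.77 and Il10rb at 0.29. Myeloid granule genes, which also encode antimicrobial proteins, had a median of -0.01 over 11 measured, with S100a8 (1.51) higher. Ltf was at -0.99, Mpo at -0.30 and Prtn3 at -0.26. Relatives of Ang4 had a median of 0.23 over 12, none past 2-fold.

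Markers of other intestinal cells were higher on the adipose array beside the 10 genes, and their part in those ratios was not tested. Of 14 measured enterocyte markers 14 were at least 2-fold higher (median 3.49), of 5 ileal markers 5 (median 3.66), and of 8 goblet cell markers 8 (median 3.96). The log2 of the summed intensity of enterocyte markers was 18.88 in HFD fat and 15.21 in ND fat. It was 16.92 in HFD fat and 12.51 in ND fat for the ileal list. For goblet cells it was 17.50 in HFD fat and 13.39 in ND fat. Such a sum rests mostly on the brightest genes of a list. Fabp6, the bile acid binding protein of the ileum, was at 5.23, and the ileal bile acid transporter parts Slc51a, Slc51b and Slc10a2 were at 4.06, 3.66 and 3.15. Of 8 enteroendocrine markers 6 were higher (median 1.42), led by Sct (3.34), Nts (2.90) and Chga (2.16). Stem cell markers stood at a median of 0.32 over 6 measured, none past 2-fold, with Ascl2 at 0.88, Rnf43 at 0.83, Lgr5 at 0.36 and Slc12a2 at 0.27. Only Dclk1 of the tuft cell list was measured, at 0.21.

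Few stomach and colon markers were measured in both fat pools. Of 3 measured stomach markers none was higher and Tff2 was lower (-2.95), and of 3 colon markers none was higher and Aqp8 was lower (-1.16). Muc4, a membrane mucin of the colon list, was above background in HFD fat alone, at a bound of 1.81 on the log2 scale. Gut wall smooth muscle had 6 of 9 measured genes at least 2-fold lower, with Cnn1 at -2.32, Actg2 at -1.59, Tagln at -1.41 and Synm at -1.32. Hepatocyte markers had 14 of 20 lower and 3 higher, with a median of -4.14. Adipocyte markers, which define the labelled tissue, were all measured on the adipose array (16 of 16) with a median of 0.18, and Lep (1.66) and Cfd (-1.70) passed 2-fold. For the adipocyte list the log2 of the summed intensity was 20.31 in HFD fat and 20.41 in ND fat. For the hepatocyte list the log2 of the summed intensity was 21.11 in HFD liver and 20.75 in ND liver. B and plasma cell markers had a median of 0.62 over 7 measured, 1 of them higher (Jchain, 1.91), and macrophage markers 0.08 over 12, 1 of them higher (Ctss, 1.08).

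**Figure D4:**
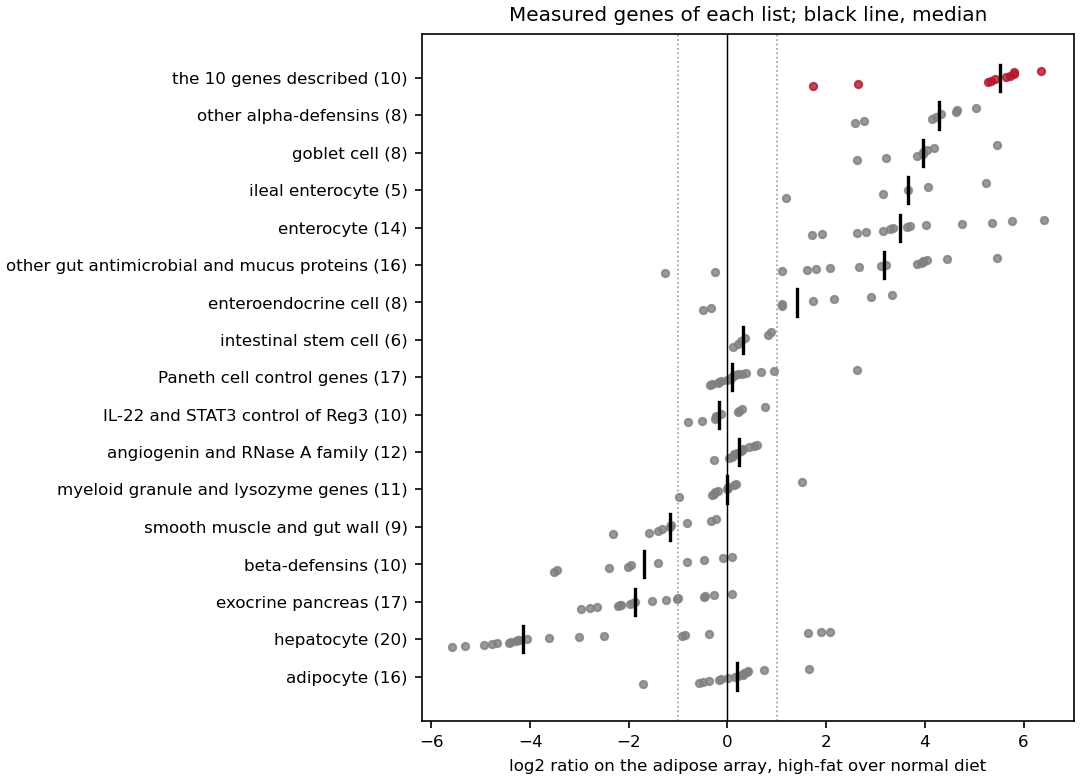
Log2 ratio on the adipose array, HFD over ND pool, of each measured gene in the 10 genes described (red) and in 16 lists (grey), with the number measured in parentheses, the median as a black line and 2-fold as dotted lines. Most drawn lists of intestinal epithelium lie to the right (medians 1.42 to 4.28), while stem cells (0.32) and Paneth cell control genes (0.10) lie nearer to no change. Lists of gut wall, beta-defensins, pancreas and hepatocytes lie to the left. Among the lists not drawn are the other Paneth cell genes (median 0.04, 2 of 8 higher and 2 lower) and colon markers (median 0.52).

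Other gut antimicrobial and mucus proteins were mostly higher in HFD fat, 14 of 16 measured, with a median of 3.17. Pigr and Sprr2a2 count among the 14 as means of probes that disagreed. Those of Pigr stood at -0.82 and 3.01, and those of Sprr2a2 at 0.03 and 4.14. Clca1 (5.46), Muc13 (4.45), Fcgbp (4.05) and Zg16 (3.97) led, and Slpi, a protease inhibitor of many epithelia, was lower (-1.27). On the liver array 2 of 9 measured genes of this list were higher: Dmbt1 (2.98), which binds bacteria at mucosal surfaces, and Tff3 (2.40), a trefoil peptide of goblet cells. These are the liver values that stand beside Reg3b (1.35). Sis, Lct, Vil1 and Mep1b, enterocyte genes, were above background in HFD liver alone, with bounds of 0.23 to 0.48 on the log2 scale. Over the whole liver array, 867 probes were above background in HFD liver alone and 790 in ND liver alone. Of the 6 enterocyte markers measured in both liver pools none passed 2-fold, with a median of 0.56. Ces2a of the ileal list was lower in liver (-1.18), where it is abundant, and higher in fat (1.18).

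Over the 4 channels, the genes whose levels, centred per gene, lay nearest to the median of the 10 were Defa36 (Euclidean distance 0.66), Fabp6 (0.67), Defa32 (0.95), Itln1 (1.00), Defa21 (1.07), Defa38 (1.17), Zg16 (1.17) and Krt20 (1.33). The 6 defensins among the 10 lay at distances of 0.23 to 0.77, Reg3g at 0.44, Reg3b at 1.21, Lyz1 at 3.72 and Ang4 at 10.1. Reg3b stood off through its liver level, and Ang4 through its order of tissues. The likeness rests on 4 channels of 2 arrays, with most liver levels at background, and is a description.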

How the data were processed

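RNA pools of 2 diets were compared in fat and in liver on 1 two-colour array per tissue. Per the file headers, the deposited median spot and local background intensities are not normalized and come from version 11.5.1.1 of Agilent Feature Extraction (protocol GE2_1105_Oct12, annotation of build mm9). Version 8.5.1.1 stands in the submitters' processing notes. The deposited log ratio is log10 of red over green after the software's own background and dye correction, and is deposited with an error, also log10. Both were turned to log2. The limma package (3.58.1, R 4.3.3) served for normexp background correction with offset 50, after outlier local backgrounds were replaced by the array's median (in fat 1480 red and 406 green, in liver 1602 red and 665 green), and for loess within arrays, in which control spots had weight 0. Spots of a probe, then probes of a gene, were averaged. A probe was measured when well above background in both channels, 58.8% of probes on the adipose array and 58.5% on the liver array. The median spot signal was 274 in HFD fat, 97 in ND fat, 127 in HFD liver and 93 in ND liver, and the median error of a ratio was 0.21. No spot was saturated. Channel levels follow Aquantile scaling. A bound sets the bright channel against the higher of the dim probe's level and the lowest level above background in that channel, and is open to dye bias without swaps. Bounds were computed with the main background correction (offset 50) only.

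The 10 genes, the lists and the rules were chosen with earlier results of these data known. Genes to be named were the 10, all measured alpha-defensins, Reg and Paneth cell genes, the 4 with the largest ratio of each other list and those past 2-fold in liver. Not all were given above. Among those left out were Fabp2 (6.42 in fat), the other enterocyte markers in fat and the single genes of the hepatocyte and pancreas lists. In liver they include Rnf43 (1.12), Cyp2e1 (1.14), Car3 (1.28) and Slc2a4 (-1.07). Atoh1, Il22ra1, Muc4, Lct, Lyz2, Ang, Ang2, Rnase4, Pigr and Sprr2a2 and the enterocyte genes in liver were picked with their values in view. Normalization was tested on simulated data. Alternatives tried were the software's ratio, no background subtraction, offset 10, local backgrounds as deposited, median centring instead of loess, a looser and no filter on dim probes, and the brightest probe of a gene. Each tissue is 1 array, so array and tissue cannot be told apart. The planned comparison of proteins and probe sequences was not run.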

Additional observations from a re-analysis of the deposited data

Results flagged for a closer look

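Lyz1 was the only one of the 3 genes measured on both arrays whose ratios had opposite signs, at 1.73 in fat and -0.22 in liver, and this difference between the tissues was not tested. The liver ratio is about as large as its scanner error of 0.21, and it was 0.19 with median centring.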

How the results depend on the processing

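On the adipose array all 10 genes, and 8 of 8 measured other alpha-defensins, were at least 2-fold higher in HFD fat under each of the 8 alternatives. The median of the 10 was 6.63 with median centring, where the median of all adipose genes was 0.69, against 5.53. Each of the 6 defensins and both lectins kept a ratio of at least 4.90 in fat under every alternative. In liver, the count of called genes was 1 (Reg3b). It was 0 with local backgrounds as deposited, where all 3 measured genes lay below 2-fold, 2 with median centring and 2 when a probe above background in either channel was enough. The liver median of 0.78 became 0.11 with local backgrounds as deposited, 1.28 with median centring (all liver genes 0.32) and 0.0065 with no filter on dim probes, which takes in genes at background. Causes beyond the settings' own construction were not tested. Of the single ratios, 87 moved by no more than the scanner error and 17 by more, none with a change of sign among called values. No paired analysis was possible because each tissue has 1 array. Dim liver spots limit what can be seen of Reg3b, Reg3g and the defensins there.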

Other observations

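Beta-defensins, epithelial relatives of the alpha-defensins that the mouse makes in skin, airway and the male reproductive tract, ran the other way in fat. Of 34 with a probe, 22 were above background in neither fat pool, 10 were measured and 6 were at least 2-fold lower in HFD fat, with a median of -1.68. Defb42 (-3.52), Defb43 (-3.45), Defb28 (-2.40) and Defb2 (-2.02) were the lowest. In liver 3 were measured, with none past 2-fold.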
